A study of Homo sapiens with 12 samples.

Results

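CENPU, the gene targeted by small interfering RNA in this study, is described here together with the genes of its CENP-O complex partners, CENPO, CENPP, CENPQ and ITGB3BP (which encodes CENP-R), and with PLK1. These 6 genes were taken by symbol, and each matched 1 of the 60664 Ensembl gene identifiers in the deposited table. The study sequenced RNA of 2 human hepatoma lines in 12 samples, 3 per group. MHCC-97H and Huh-7 cells were each transfected either with si-CENPU, which targets CENPU, or with the control si-NC. The labels call the si-CENPU samples a CENPU knockdown and the si-NC samples wild type. No dose, time after transfection or small interfering RNA sequence is given in the sources used here. Both are established cell lines, and the labels do not say whether the 3 samples per group are separate cultures, so each p-value speaks only of the spread among these libraries, which may be technical. Values are TPM, the abundance of a gene per transcript length scaled to a fixed total per library, which puts different genes on a shared scale. It does not adjust for the GC content of a gene, so any order of genes is an order of listed levels. TPM keeps no sequencing depth, and the depth of each library is unknown.

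The CENP-O complex is the peripheral part of the constitutive centromere-associated network (CCAN), an inner layer of the kinetochore that sits on centromeric chromatin through the cell cycle. CENP-O and CENP-P form a tight pair, CENP-Q and CENP-U form another, and CENP-R joins through the CENP-Q and CENP-U pair. CENP-U, once phosphorylated, is bound by the polo-box domain of PLK1, the mitotic kinase that helps kinetochores hold microtubules, and this is a main route by which PLK1 reaches the inner kinetochore. PLK1 is transcribed mostly in G2 and mitosis, under elements known as CHR and CCAAT boxes. Resting hepatocytes hardly divide, and mitotic genes are typically low in adult liver.

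The 250 bases before the transcription start of PLK1 and of CENPU are shown because, among the 6 genes, PLK1 had the largest difference between the lines and CENPU had a small one. They are RefSeq sequence on GRCh38.p14, at chr16:23678639-23678888 on the plus strand for PLK1 and chr4:184734097-184734346 on the minus strand for CENPU, written 5′ to 3′ with motif matches in capitals.
PLK1: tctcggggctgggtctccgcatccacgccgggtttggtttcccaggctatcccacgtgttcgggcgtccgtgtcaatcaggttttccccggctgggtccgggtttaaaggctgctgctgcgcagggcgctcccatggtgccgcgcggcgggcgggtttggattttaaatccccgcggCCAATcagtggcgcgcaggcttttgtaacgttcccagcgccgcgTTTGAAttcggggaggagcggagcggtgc
CENPU: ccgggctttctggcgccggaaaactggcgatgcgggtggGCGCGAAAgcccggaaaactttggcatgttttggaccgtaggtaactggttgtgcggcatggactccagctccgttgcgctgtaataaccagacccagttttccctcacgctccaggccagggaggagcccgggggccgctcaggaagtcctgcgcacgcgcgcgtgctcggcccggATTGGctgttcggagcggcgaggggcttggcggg
In PLK1 the capitals mark CCAAT, which begins at position -73 from the start, and the CHR letters TTTGAA at -29. In CENPU they mark a match to the E2F letters TTTNNCGC on the other strand at -211 and ATTGG, which is CCAAT on the other strand, at -34. The 3 motifs were searched on both strands and did not overlap in these windows. Of 35116 RefSeq windows of the same length, 13.3% held the CHR letters, 32.0% held CCAAT and 5.92% held the E2F letters. A CCAAT box also began at -84 in CENPQ and at -153 in 1 of the 3 entries for CENPP, whereas ITGB3BP and CENPO held none of the 3 motifs. A match is a description of letters and not a measured binding site.

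Mean levels over the 12 libraries reached 1 TPM for CENPO, ITGB3BP and PLK1, 3 of the 6 genes, and these entered the test of 11088 genes with that mean. ITGB3BP and PLK1 passed only through MHCC-97H. CENPU, CENPP and CENPQ averaged below 1 TPM. For these 3 genes, exact two-sided permutation tests over the samples are given, together with a fit over the 30267 genes above 0 in any sample. All tests used log2(TPM + 1), a scale that understates the change of low genes, and limma with Benjamini-Hochberg adjustment over all genes of a fit.

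CENPU, on chromosome 4 at 184694618 to 184734133 of GRCh38 on the minus strand (ENSG00000151725), is the CENP-U subunit gene. In MHCC-97H it was listed at 0.22, 0.45 and 0.24 TPM with si-CENPU, against 1.17, 0.83 and 0.89 TPM with si-NC. In Huh-7 it was listed at 0.17, 0.11 and 0.45 TPM with si-CENPU, against 0.56, 0.84 and 0.53 TPM with si-NC. Every si-CENPU library lay below every si-NC library of its line, so the target was lower in the direction of its label in both lines.

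The group means of CENPU were 0.303 ± 0.127 TPM with si-CENPU and 0.963 ± 0.181 TPM with si-NC in MHCC-97H, and 0.243 ± 0.181 TPM with si-CENPU and 0.643 ± 0.171 TPM with si-NC in Huh-7 (SD, n = 3 each). The difference of mean log2(TPM + 1) was -0.59 in MHCC-97H and -0.41 in Huh-7, each with an exact two-sided permutation p of 0.1, the smallest that 3 against 3 samples allow. Over both lines it was -0.50 with an exact permutation p of 0.005, the smallest possible when labels are permuted within each line. The size depends on the pseudocount: with 0.1 in place of 1 the difference was -1.43 in MHCC-97H and -1.22 in Huh-7. In the limma fit over 30267 genes the same differences had adjusted p = 0.537 in MHCC-97H, 0.955 in Huh-7 and 0.362 for the average of both lines. Of those genes, 2.7% in MHCC-97H and 2.31% in Huh-7 had si-CENPU libraries wholly below si-NC. The difference of the responses, MHCC-97H minus Huh-7, was -0.18, with a 95% interval of -0.62 to 0.26 and a limma adjusted p of 0.912. PRIMPOL starts on the opposite strand within the first bases of CENPU, and without a stated strand setting reads of overlapping genes cannot be told apart. PRIMPOL was listed at 0.50 to 0.70 TPM with si-CENPU and 0.22 to 0.64 TPM with si-NC in MHCC-97H, and at 0.12 to 0.40 TPM with si-CENPU and 0.20 to 0.73 TPM with si-NC in Huh-7.

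CENPQ, on chromosome 6 at 49463378 to 49493107 on the plus strand (ENSG00000031691), encodes the direct partner of CENP-U. In MHCC-97H its values were 1.10, 1.26 and 1.52 TPM after si-CENPU, against 2.11, 1.99 and 1.07 TPM after si-NC. In Huh-7 the values were 0.68, 0.27 and 0.44 TPM with si-CENPU, against 0.16, 0.65 and 0.18 TPM with si-NC. The groups overlapped in both lines. The difference of mean log2(TPM + 1) was -0.23 in MHCC-97H and 0.15 in Huh-7, with exact permutation p-values of 0.4 and 0.5, and -0.040 over both lines with an exact permutation p of 0.8. The 95% interval of limma ran from -0.68 to 0.22 in MHCC-97H and from -0.31 to 0.60 in Huh-7, so a lower or a higher CENPQ level after si-CENPU was not detectable at this spread. In MHCC-97H the value depended on single si-NC libraries, at -0.12 without replicate 1 and -0.15 without replicate 2, each with an exact permutation p of 0.7, and at -0.42 without replicate 3, with an exact permutation p of 0.1. CENPQ transcripts have a mean GC content of 33.9%, and only 0.1% of the tested genes have a lower one. MHCC-97H si-NC replicate 3 was the library whose deviations rose most with GC content (Spearman rho 0.476). In si-NC replicate 1 of that line they fell most (Spearman rho -0.529). After a correction for GC content the limma difference in MHCC-97H was -0.10. The part of GC content in the CENPQ values was not tested.

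ITGB3BP, on chromosome 1 at 63440770 to 63593721 on the minus strand (ENSG00000142856), encodes CENP-R, which was also described as a binding partner of integrin beta3 and of nuclear receptors. MHCC-97H libraries held 5.16, 6.44 and 4.53 TPM after si-CENPU, against 6.78, 6.68 and 4.64 TPM with si-NC. In Huh-7 it was listed at 0.29, 0.21 and 0.20 TPM with si-CENPU, against 0.05, 0.17 and 0.03 TPM with si-NC. The groups overlapped in MHCC-97H, and in Huh-7 all 3 si-CENPU libraries lay above the si-NC libraries, at values near 0. Of the 11088 tested genes, 3.79% had si-CENPU groups wholly above si-NC in Huh-7. The limma difference was -0.14 ± 0.16 (SE) in MHCC-97H and 0.19 ± 0.16 (SE) in Huh-7, both with an adjusted p of 1.

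CENPO, on chromosome 2 at 24793136 to 24822376 on the plus strand (ENSG00000138092), encodes CENP-O, which with CENP-P forms the body of the complex. MHCC-97H libraries held 5.99, 9.31 and 3.64 TPM after si-CENPU, against 6.86, 5.14 and 3.78 TPM after si-NC. In Huh-7 it stood at 2.37, 1.67 and 2.17 TPM with si-CENPU, against 1.63, 3.18 and 3.68 TPM with si-NC. The groups overlapped in both lines, and in MHCC-97H the spread among si-CENPU libraries was wider than the gap between the groups. The limma difference was 0.18, with a 95% interval of -0.49 to 0.85, in MHCC-97H and -0.28, with an interval of -0.95 to 0.38, in Huh-7, both with an adjusted p of 1. The Huh-7 value was -0.53 without si-NC replicate 1 and -0.12 without si-NC replicate 3. PTRHD1 overlaps CENPO by 247 bases on the opposite strand and was far more abundant, at a mean of 183 TPM with si-CENPU and 181 TPM with si-NC in MHCC-97H.

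CENPP, on chromosome 9 at 92325484 to 92620533 on the plus strand (ENSG00000188312), encodes the partner of CENP-O. MHCC-97H libraries were listed at 0.73, 1.23 and 0.76 TPM after si-CENPU, against 0.50, 0.39 and 0.70 TPM after si-NC. In Huh-7 it was listed at 0.26, 0.28 and 0.42 TPM with si-CENPU, while si-NC replicate 2 had 0.20 TPM and si-NC replicates 1 and 3 were listed at 0. With TPM as deposited, every si-CENPU library lay above every si-NC library of its line, in MHCC-97H only by 0.73 against 0.70 TPM.

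The difference of mean log2(TPM + 1) for CENPP was 0.31 in MHCC-97H and 0.31 in Huh-7, each with an exact permutation p of 0.1, and with a pseudocount of 0.1 it was 0.67 in MHCC-97H and 1.52 in Huh-7. It was 0.31 over both lines, with an exact permutation p of 0.005, the smallest possible, and limma over 30267 genes gave an adjusted p of 0.927 for it. Within a line, 2.09% of those genes in MHCC-97H and 2.66% in Huh-7 had si-CENPU libraries wholly above si-NC. Non-overlap in both lines was seen in 0.175% of those genes in the higher direction, which held for CENPP, and in 0.149% in the lower direction, which held for CENPU. Among the 3909 genes averaging 0.3 to under 1 TPM, like these 2, the shares were 0.128% higher and 0.205% lower. The other 4 genes did not show non-overlap in both lines. Without MHCC-97H si-CENPU replicate 2, the highest library, the difference within MHCC-97H was 0.19. After trimmed-mean scaling the MHCC-97H difference was 0.29 with an exact permutation p of 0.2, so the groups there were no longer wholly apart. Over both lines it was then 0.33 with an exact permutation p of 0.01. NOL8 overlaps CENPP by 153 bases on the opposite strand, and was listed at 1.70 to 1.84 TPM with si-CENPU and 1.5 to 2.64 TPM with si-NC in MHCC-97H, and at 0.46 to 1.23 TPM with si-CENPU and 0.40 to 0.61 TPM with si-NC in Huh-7.

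PLK1, on chromosome 16 at 23677656 to 23690367 on the plus strand (ENSG00000166851), is the kinase that CENP-U binds. MHCC-97H libraries held 73.29, 82.91 and 58.91 TPM after si-CENPU, against 66.14, 72.48 and 65.54 TPM after si-NC. The si-CENPU libraries reached both above and below all si-NC libraries. The means were 71.7 ± 12.1 TPM with si-CENPU and 68.1 ± 3.85 TPM with si-NC (SD, n = 3 each), and the limma difference was 0.062, with a 95% interval of -0.25 to 0.37 and an adjusted p of 1. In Huh-7 PLK1 was listed at 0 in all 3 si-CENPU libraries and in si-NC replicate 1, and at 0.31 and 0.21 TPM in si-NC replicates 2 and 3. The limma difference there was -0.22, with an interval of -0.53 to 0.087 and an adjusted p of 1.

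**Figure D1:**
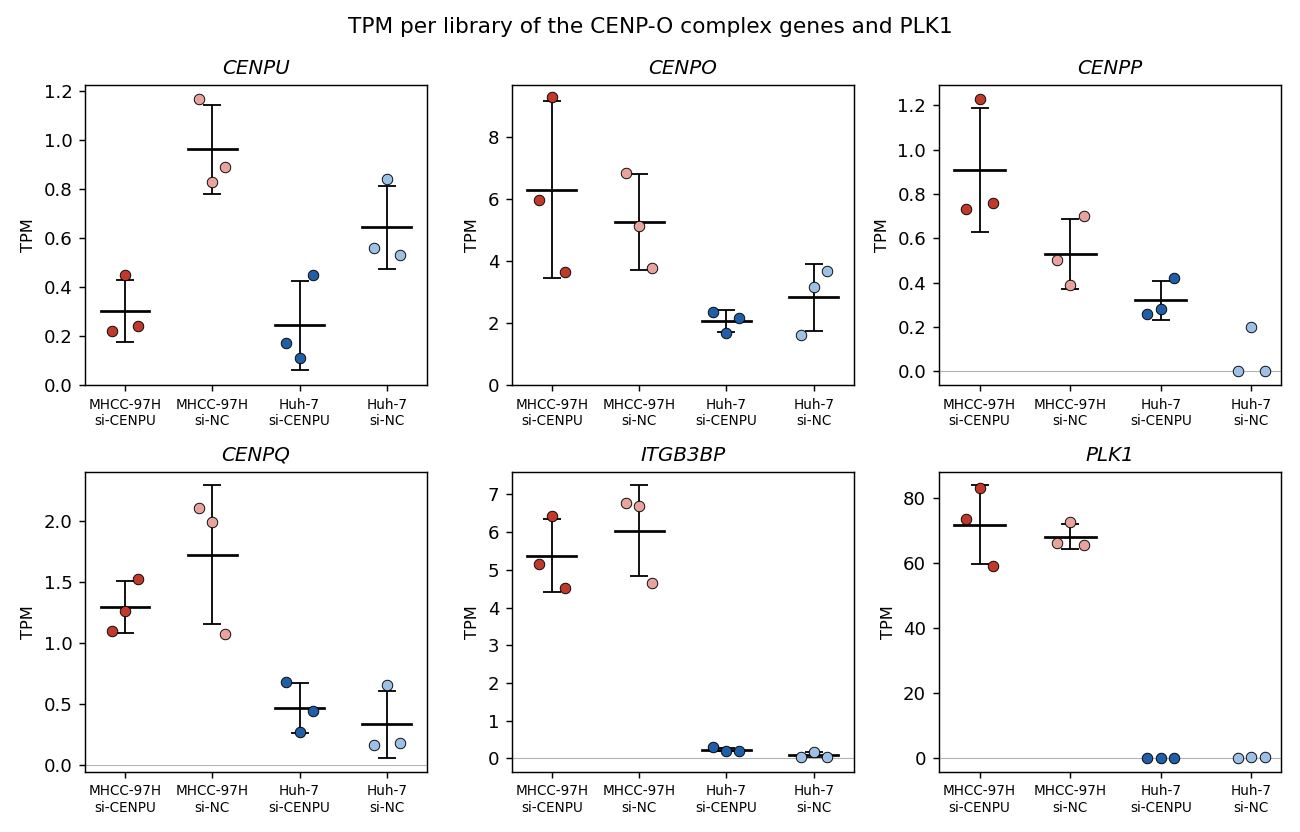
TPM (vertical axes, a separate scale per gene) of the 6 genes in each library of the 4 groups; points are libraries in the order of replicates 1 to 3, horizontal lines the mean and bars 1 SD (n = 3), left out where a library is listed at 0. With TPM as deposited CENPU lies lower and CENPP higher with si-CENPU in both lines without overlap, CENPP in MHCC-97H only by 0.73 against 0.70 TPM. Of 30267 genes, 0.149% lay lower and 0.175% higher without overlap in both lines. PLK1 stands at 58.91 to 82.91 TPM in MHCC-97H against 0 to 0.31 TPM in Huh-7.

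None of the 3 members tested by limma was called at an adjusted p below 0.05 in either line, in the average of both lines or in the difference of the responses. None of them reached an unadjusted p below 0.05 either. The background was 0.00902% of genes called in each of these contrasts, that is 1 gene each: ADAM15 in MHCC-97H, MAP2K4 in Huh-7 and for the difference of the responses, and EMC6 for the average, all named after their values were seen. With so few genes called, a count of 0 among 3 members is what the background gives. In the fit over 30267 genes 0 of 6 members were called, against 0.0231% of genes in MHCC-97H and for the average, 0.0132% in Huh-7 and 0.0198% for the difference of the responses. CENPU and CENPP had an unadjusted p below 0.05 in each line, as did 4.31% of genes in MHCC-97H and 4.3% in Huh-7. With a replicate block 1 member stayed below 0.05 in MHCC-97H and 0 in Huh-7. For PLK1 the difference of the responses was 0.28, with a 95% interval of -0.15 to 0.72. It was 0.46 for CENPO, with an interval of -0.48 to 1.41, and -0.33 for ITGB3BP, with an interval of -0.83 to 0.18.

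**Figure D2:**
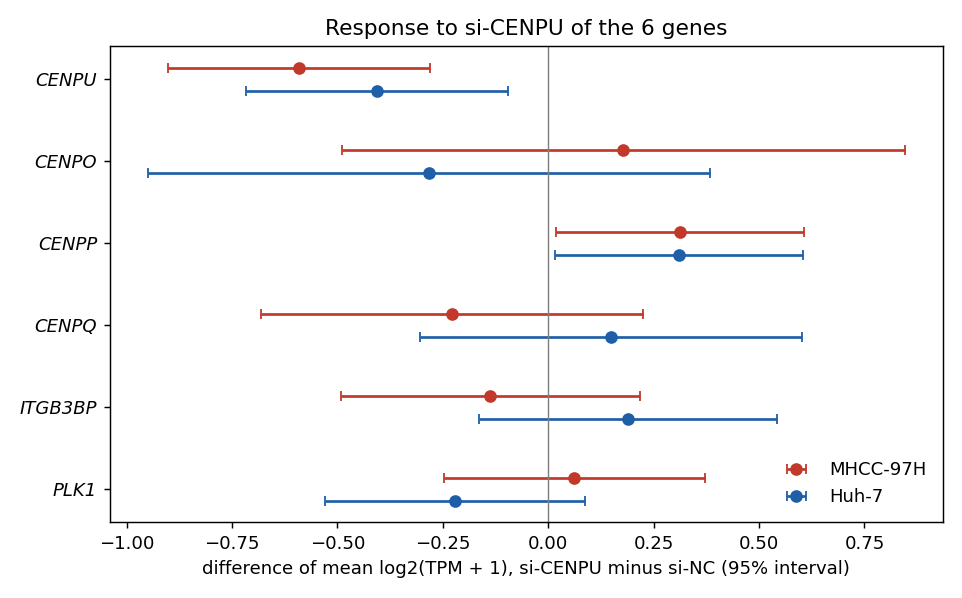
Difference of mean log2(TPM + 1), si-CENPU minus si-NC (horizontal axis), for each of the 6 genes in MHCC-97H (red) and Huh-7 (blue); points are limma estimates and bars 95% intervals, from the fit over 11088 genes for CENPO, ITGB3BP and PLK1 and over 30267 genes for the others. The intervals of CENPU (-0.90 to -0.28 in MHCC-97H) and CENPP (0.018 to 0.61 in MHCC-97H) leave out 0 before adjustment, and those of the other 4 genes span 0.

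PLK1 and ITGB3BP differed far more between the lines than between treatments. In si-NC libraries PLK1 was higher in MHCC-97H than in Huh-7 by 5.89 ± 0.14 on the log2(TPM + 1) scale (SE), with a limma adjusted p of 9.52e-12. ITGB3BP was higher by 2.69 ± 0.16 (SE), with a limma adjusted p of 3.67e-08. In Huh-7 si-NC libraries PLK1 was listed at 0, 0.31 and 0.21 TPM, and whether its RNA was as low as listed was not tested. For CENPO the difference was 0.72 ± 0.30 (SE), with a limma adjusted p of 0.0499, and it rested on the scaling. All 3 were called higher, beside 50.1% of the tested genes called higher and 22.9% called lower, so being called is common here. ITGB3BP and PLK1 entered the test through their MHCC-97H levels alone, so their calls are no support for a pattern over the members. The median difference of all tested genes was 0.49 with TPM as deposited and 0.0023 after trimmed-mean scaling. After that scaling PLK1 stood at 5.54, ITGB3BP at 2.38, and CENPO at 0.23 with a limma adjusted p of 0.354.

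The 3 low genes were compared in the fit without a filter, where 24.6% of genes were called higher. CENPQ averaged 1.72 ± 0.569 TPM in MHCC-97H and 0.330 ± 0.277 TPM in Huh-7 si-NC libraries (SD, n = 3 each), a difference of 1.03 on the log2 scale with a limma adjusted p of 0.00221. CENPP differed by 0.52 with a limma adjusted p of 0.00970, which became 0.0623 after the GC correction. CENPU differed by 0.26, with a 95% interval of -0.053 to 0.57 and a limma adjusted p of 0.192, and by -0.022 after trimmed-mean scaling. With si-NC the CENPU values of the lines overlapped, at 0.83 to 1.17 TPM in MHCC-97H and 0.53 to 0.84 TPM in Huh-7.

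The order of the levels differed between the lines. In MHCC-97H si-NC libraries PLK1 stood highest. ITGB3BP (6.03 ± 1.21 TPM) and CENPO (5.26 ± 1.54 TPM) followed and did not differ beyond their spread, and then came CENPQ, CENPU (0.963 ± 0.181 TPM) and CENPP (0.530 ± 0.157 TPM), of which CENPQ and CENPU overlapped in their values. In MHCC-97H si-CENPU libraries the order was PLK1, CENPO with ITGB3BP, CENPQ with CENPP, and CENPU last. In Huh-7 CENPO stood highest with both treatments, at 2.07 ± 0.361 TPM with si-CENPU and 2.83 ± 1.07 TPM with si-NC (SD, n = 3 each), and each of the other 5 genes stayed below 1 TPM in every library. Their neighbours in the order did not differ beyond the spread, except that PLK1, listed at 0 with si-CENPU, lay below ITGB3BP.

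**Figure D3:**
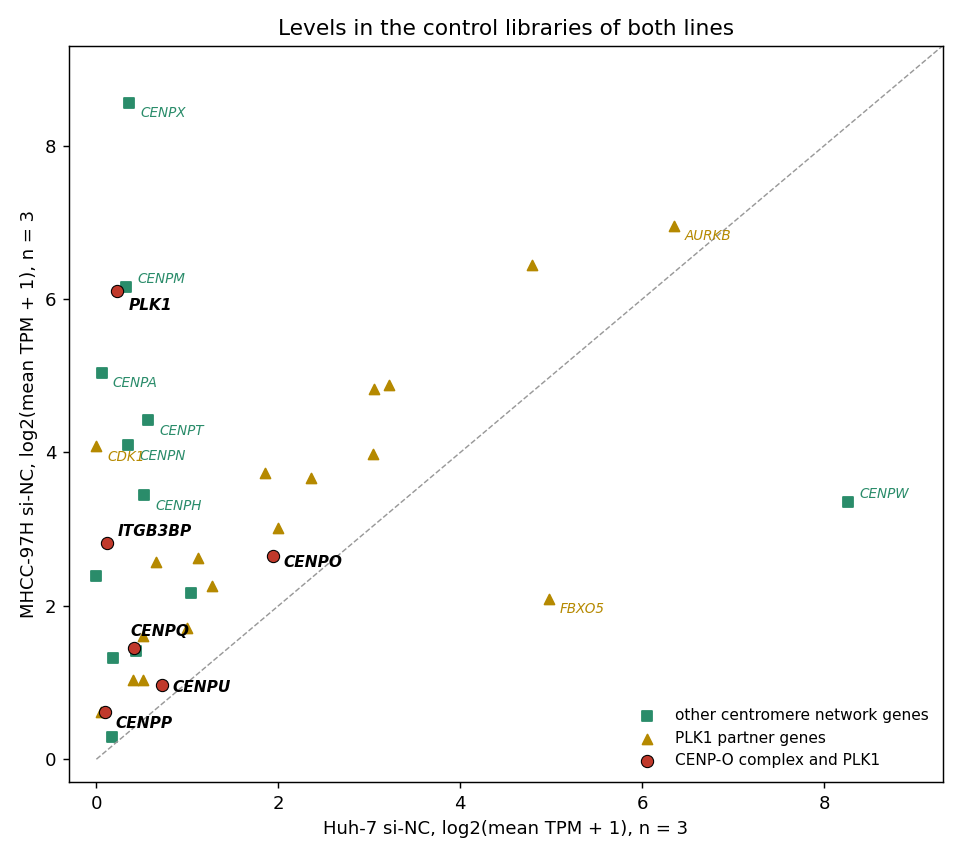
Mean levels on the log2(mean TPM + 1) scale in si-NC libraries of Huh-7 (horizontal axis) and MHCC-97H (vertical axis), n = 3 each, for the 6 genes (red circles), other genes of the centromere network (green squares) and PLK1 partner genes (yellow triangles); the dashed line marks equal levels. With TPM as deposited all 6 genes lie above the line, PLK1 farthest and CENPU closest to it (CENPU is at a difference of -0.022 after trimmed-mean scaling), and CENPW and FBXO5 are among the genes below it.

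Values near 0 in Huh-7 were not particular to these genes. Of the 11088 tested genes, 610 (5.50%) stayed under 0.5 TPM in all 6 Huh-7 libraries, ITGB3BP and PLK1 among them, and 92 of these (0.83%) reached at least 20 TPM in all 6 MHCC-97H libraries, PLK1 among them. The reverse pattern held for 130 genes (1.17%). CDK1, the kinase that drives entry into mitosis, was listed at 0 in all 3 Huh-7 si-NC libraries and at 11.39 to 19.46 TPM in MHCC-97H si-NC libraries, and the replication clamp PCNA stayed at or under 0.23 TPM in Huh-7. The mitotic kinase AURKB stood at 72.4 to 97.6 TPM over all 6 Huh-7 libraries, and the mitotic cyclin CCNB1 at 5.11 to 9.46 TPM. An exact 0 in a table of this kind can be a failed estimate, so whether PLK1 RNA was as low in Huh-7 as listed was not tested.

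The lines also differed in hepatocyte genes. The 10 hepatocyte markers summed to 0.82 to 2.18 TPM with si-CENPU and 0.37 to 0.83 TPM with si-NC in MHCC-97H, where ALB was listed at 0 in every si-NC library. They summed to 6658 to 7570 TPM with si-CENPU and 7106 to 7583 TPM with si-NC in Huh-7, most of it from APOA1 and TTR. Not all of them were high in Huh-7: APOA2 was listed at 0.15 to 0.37 TPM with si-CENPU and 0.57 to 0.69 TPM with si-NC. The labels call both lines hepatoma cells, but the hepatocyte markers were near 0 in MHCC-97H. Endothelial markers summed to at most 0.68 TPM, and fibroblast markers to at most 6.56 TPM. The 4 immune markers found in the table summed to 17.5 to 19.09 TPM with si-CENPU and 18.33 to 20.27 TPM with si-NC in MHCC-97H, most of it from CD68, a lysosomal protein of macrophages. In Huh-7 they summed to 55.73 to 72.09 TPM with si-CENPU and 47.08 to 63.73 TPM with si-NC, from CD68 and the lysozyme gene LYZ, while the T cell marker CD3E stayed at or under 0.08 TPM. The part of these differences in the levels of the 6 genes was not tested.

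Other genes of the centromere network were read from a list of 12, of which 9 entered the test. None was called after si-CENPU in either line by limma, at unadjusted p-values below 0.05 for 0 of them in MHCC-97H and for 4 in Huh-7 (CENPH, CENPM, CENPT and CENPW), beside 3.42% of all tested genes in MHCC-97H and 4.57% in Huh-7. Of the 4 genes in Huh-7, CENPH, CENPM and CENPT averaged under 1 TPM there and passed the filter only through MHCC-97H. CENPT was lower with si-CENPU there (-0.33), while CENPH, CENPM and CENPW were higher, so no pattern is read from this count. The median difference of the 9 genes was -0.035 in MHCC-97H (0.050 after trimmed-mean scaling) and 0.12 in Huh-7, beside -0.052 and 0.0095 over all tested genes. The Huh-7 median was the value of CENPS, at a mean of 0.087 TPM with si-CENPU and listed at 0 with si-NC. The CENP-O complex docks on the CENP-H, CENP-I, CENP-K and CENP-M subunits and on the CENP-L and CENP-N pair. In MHCC-97H, CENPM had 65.44, 73.61 and 74.09 TPM with si-CENPU, against 68.58, 70.87 and 72.23 TPM with si-NC. CENPN there had 17.36, 16.29 and 15.94 TPM with si-CENPU, against 19.50, 17.38 and 11.34 TPM with si-NC. In Huh-7 CENPM was listed at 0.60 to 0.67 TPM with si-CENPU and 0.07 to 0.38 TPM with si-NC, and CENPN at 0.03 to 0.18 TPM with si-CENPU and 0.21 to 0.31 TPM with si-NC. Between the lines, 7 of the 9 genes averaged under 1 TPM in Huh-7 and passed the filter only through MHCC-97H, where such a gene had to be higher. Nothing is therefore read from the count of 8 called higher in MHCC-97H si-NC libraries, beside 50.1% of all tested genes. CENPW was not called, at 5.58 to 11.11 TPM in MHCC-97H si-NC libraries and 0, 774.17 and 146.03 TPM in Huh-7 si-NC libraries.

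Partners and regulators of PLK1 formed a list of 18 genes, 15 of them tested. None was called after si-CENPU in either line by limma, and 0 in MHCC-97H and 1 in Huh-7 had an unadjusted p below 0.05, a share near that of all tested genes (3.42% and 4.57% in these lines). The median difference was -0.082 in MHCC-97H and -0.049 in Huh-7, beside -0.052 and 0.0095 over all tested genes. After trimmed-mean scaling it was -0.0046 in MHCC-97H and -0.078 in Huh-7, beside 0.0046 and -0.0076 over all tested genes. The spindle checkpoint kinase BUB1, which also recruits PLK1 to kinetochores, held 5.29, 5.22 and 3.84 TPM after si-CENPU in MHCC-97H, against 6.94, 5.47 and 3.10 TPM with si-NC. AURKA, which activates PLK1 together with BORA, stood at 10.37, 12.11 and 7.75 TPM with si-CENPU, against 12.98, 14.04 and 8.13 TPM with si-NC in that line. The groups overlapped for both genes. Between the lines 14 of the 15 genes were called higher in MHCC-97H and 0 lower, beside 50.1% of all tested genes called higher and 22.9% lower. After trimmed-mean scaling 13 of the 15 were called higher, beside 3753 of the 11088 tested genes called higher and 3869 lower. Of the 15, WEE1, CDK1 and KIZ averaged under 1 TPM in Huh-7 and passed the filter only through MHCC-97H. Of 13 regulators of G2 and mitotic transcription, 11 were tested, 4 of them (LIN9, LIN52, E2F5 and TFDP2) carried past the filter by MHCC-97H alone. Of the 11, 9 were called higher in MHCC-97H and 1, LIN37, lower, beside the same 50.1% and 22.9% of all tested genes. After trimmed-mean scaling 8 were called higher and 1 lower, beside the same 3753 and 3869 genes. After quantile normalization 8 were called higher and 1 lower, beside 4340 and 3522 of the 11088 tested genes.

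Within a line, deviations of CENPU and of PLK1 from the line mean were compared with those of other genes over the 12 libraries as a description. CENPO followed PLK1 (Pearson r 0.824, Spearman rho 0.836), and r was 0.740 without the 2 libraries farthest from the median of PLK1. In Huh-7 all coefficients with PLK1 rest on values of 0 to 0.31 TPM, with every si-CENPU library listed at 0. Such a 0 can be a failed estimate. In MHCC-97H replicate 3 was the lowest library of each treatment for CENPO, ITGB3BP and PLK1. CENPU and CENPP deviated in opposite directions (r -0.480, rho -0.571). Of the tested genes, those most like CENPU were MET (r 0.885), CDK10 (0.877), CHERP (0.867), AATF (0.850) and IGSF8 (0.844), and those most like PLK1 included HIP1R (0.920), ARHGEF18 (0.912), MUC20-OT1 (0.892) and NPRL3 (0.890). Both sets were taken from the highest of 11088 coefficients each, and the points share treatment groups and libraries.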

How the data were processed

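Values are TPM per gene as deposited by the authors, 1 column for each of the 12 samples. HISAT2, StringTie and the build GRCh38.p13 are named in the submitters' processing notes. No annotation release, strand setting or filter is given in the sources used here. Columns summed to 998416 to 999065. Groups came from the sample titles. Symbols were matched for 60447 of 60664 identifiers. GENCODE release 29 gave coordinates and transcript GC content (GC for 98.9% of tested genes), and promoters from RefSeq.

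TPM was put on the log2(TPM + 1) scale. Genes with a mean of at least 1 TPM were fitted with limma 3.58.1 in R 4.3.3, with 1 mean per group over all 12 samples, a mean-variance trend and Benjamini-Hochberg adjustment per contrast, and called at an adjusted p below 0.05. This fit was also run on simulated data with independent normal noise for the genes that passed the filter. That run did not cover the fit without a filter. Genes below the filter had exact permutation tests, with all assignments listed in Python 3.11.15, and the same fit without a filter. For that fit the other alternatives were repeated as a choice added after seeing the data. Spearman correlations used scipy 1.17.1. Trimmed-mean scaling, quantile normalization, other pseudocounts and filters, a GC correction, a replicate block, each line alone, no trend and leave-one-out were alternatives. Named genes were the 6 members, listed genes that were called, docking partners, 5 PLK1 partners and the 5 genes most like CENPU and PLK1 each, of which 1 is not reported here. The members, lists and the test over both lines were chosen with earlier results of these data known.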

Additional observations from a re-analysis of the deposited data

Results flagged for a closer look

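PLK3, a stress-responsive polo-like kinase read from the list of PLK1 relatives, had differences of opposite sign in the lines, neither of which passed the test. MHCC-97H libraries held 8.39, 8.29 and 8.55 TPM after si-CENPU, against 10.26, 10.37 and 10.54 TPM after si-NC. Huh-7 libraries held 7.62, 7.72 and 8.74 TPM with si-CENPU, against 5.15, 6.66 and 7.25 TPM with si-NC. The limma difference was -0.28 in MHCC-97H and 0.30 in Huh-7, both with an adjusted p of 1. The limma test of the difference of the responses, MHCC-97H minus Huh-7, gave -0.58 ± 0.17 on the log2 scale (SE), with an unadjusted p of 0.00496 and an adjusted p of 0.999, so it failed the correction over 11088 genes.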

How the results depend on the processing

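No member was called by limma after si-CENPU in any alternative run, and PLK1 and ITGB3BP were called higher in MHCC-97H si-NC libraries wherever they were tested. CENPU and CENPP kept their direction after si-CENPU in each line under every alternative, with larger sizes at a pseudocount of 0.1. Over both lines their exact permutation p of 0.005 is unadjusted. Any gene whose groups lie apart in the same direction in both lines reaches it. Limma without a filter, where 30267 genes are adjusted together, called neither (-0.50 with an adjusted p of 0.362, and 0.31 with 0.927). CENPQ over both lines changed sign with a pseudocount of 0.1 (0.080), trimmed-mean scaling (0.011) and quantile normalization (0.014), and ran from -0.13 to 0.042 when a library was left out. The CENPP difference of responses, 0.0018, changed sign with pseudocounts of 0.1 (-0.85) and 0.5 (-0.10), trimmed-mean (-0.075) and quantile scaling (-0.062), and ran from -0.12 to 0.080 with a library left out. Between the lines CENPU was at -0.022 after trimmed-mean scaling. CENPO lost its call between the lines with trimmed-mean scaling (0.23), quantile normalization (0.31), no trend (0.72), no filter (0.72) and 8 of 12 left-out libraries (range 0.47 to 0.90); its adjusted p ran from 0.0170 to 0.354 over all alternatives. Leaving out a library moved the MHCC-97H response from -0.11 to 0.47 for CENPO and from -0.048 to 0.19 for PLK1, and the average response from -0.20 to 0.093 for CENPO and from -0.050 to 0.074 for ITGB3BP. CENPO turned to -0.11 and PLK1 to -0.048 in MHCC-97H without si-CENPU replicate 2.

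The number of genes called after si-CENPU, 1 in each contrast, was small under all settings. In MHCC-97H it was 0 with a pseudocount of 0.1, no trend or the line fitted alone, 3 with trimmed-mean scaling, 7 with quantile normalization, 8 with the GC correction and 7 without a filter. In Huh-7 it was 11 with a pseudocount of 0.1, 3 with trimmed-mean scaling, quantile normalization or the GC correction, 4 without a filter, and 0 with a mean of at least 5 TPM or the line fitted alone. For the average it was 9, 13 and 23 with trimmed-mean, quantile and GC settings, 0 with no trend, and 7 without a filter or with a mean of at least 5 TPM. For the difference of the responses it was 0 with pseudocounts of 0.1 and 0.5 and with a mean of at least 5 TPM, 2 with trimmed-mean scaling and 6 without a filter. With a library left out the count ran from 0 to 4 in MHCC-97H, 0 to 4 in Huh-7, 0 to 6 for the average and 0 to 4 for the difference; in the fit without a filter it ran from 8 to 58 in MHCC-97H, 3 to 52 in Huh-7, 14 to 34 for the average and 12 to 29 for the difference, with 0 members called. With a mean of at least 5 TPM, 4405 genes and 1 member, PLK1, were called between the lines, against 8099 genes and 3 members, since fewer genes were tested. Deviations of same-numbered replicates correlated at -0.09 to 0.13, and those of differently numbered replicates at -0.12 to 0.16. The labels do not say whether the numbers mark a pairing, and these correlations cannot exclude one. A replicate block gave 0 genes called in each of the 4 contrasts with si-CENPU and changed no member's call. The causes of these shifts were not tested, and TPM gives no depth by which to bound the low values.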

Other observations

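Some other centromere genes varied widely among Huh-7 libraries of the same treatment. CENPW, a subunit that pairs with CENP-T, was listed at 767.94, 778.95 and 1067.93 TPM with si-CENPU, against 0, 774.17 and 146.03 TPM with si-NC. CENPA, the centromeric histone, was listed at 0.17, 7.75 and 0 TPM with si-CENPU, against 0, 0 and 0.12 TPM with si-NC. In MHCC-97H CENPA lay at 30.79 to 35.04 TPM with si-CENPU and 30.54 to 33.69 TPM with si-NC, and CENPW at 8.76 to 12.34 TPM with si-CENPU and 5.58 to 11.11 TPM with si-NC. CENPX, which belongs to the same CENP-T branch, was listed at 0 in all Huh-7 libraries but si-NC replicate 2 (0.86 TPM), and at 352.23 to 376.82 TPM with si-CENPU and 348.01 to 390.92 TPM with si-NC in MHCC-97H. The CENP-H gene lay at 0.92 to 1.30 TPM with si-CENPU and 0.40 to 0.48 TPM with si-NC in Huh-7, a limma difference of 0.54 ± 0.15 (SE) with an unadjusted p of 0.00427 and an adjusted p of 0.828.

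3 of the 6 genes lie at the low end of transcript GC content. Only 0.1% of the tested genes with a value had a lower mean than CENPQ (33.9%), 0.6% than ITGB3BP (37.1%) and 2.4% than CENPU (39.0%), against 67.3% for PLK1 (57.1%).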
